A study of Homo sapiens with 4 samples.

Results

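The kinesins are the motor proteins that walk on microtubules or take their ends apart, and all 42 of their genes that the array names by a KIF symbol or as KIFC1, KIFC2 or KIFC3 were taken, from 25847 genes compared in all. The rule reads symbols and uses no measured value, though the family was picked with earlier results of these data known. Where a gene had several transcript clusters, the array's name for a set of probes on 1 transcribed locus, the brightest one, by its mean of the 4 arrays, was used. By their textbook roles 15 were placed as mitotic, 17 as transport and 10 as cilium, signalling and other kinesins. The question put to them was whether motors of the dividing cell and motors of cargo transport differ after ribavirin.

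The cells were Hut78, a long-used cell line grown from a cutaneous T-cell lymphoma, measured on Affymetrix Human Transcriptome Arrays 2.0. The 2 ribavirin arrays hold total RNA of cells given the guanosine analogue at 50 µM for 120 h, and the 2 control arrays that of cells given no drug. Both groups grew in RPMI medium with serum, and no label gives another agent, a time for the control, a batch, or the cultures the arrays came from. A p-value therefore speaks only of the spread among these arrays, possibly a technical one, and the number of arrays limits the precision.

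Kinesins share a motor domain that burns ATP. The mitotic members push spindle poles apart, move and align chromosomes, trim microtubule ends and build the midzone where the cell cleaves, and their transcripts are known to build up in G2 and mitosis. The transport members carry vesicles, mitochondria and endosomes, mostly toward the cell edge, and several are known mainly from neurons. In T cells the KIF21B motor is known for limiting microtubule growth while the centrosome turns to the immune synapse.

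Levels are the authors' log2 values. The highest of 23 background probe sets averaged 4.95 on the ribavirin arrays and 5.20 on the control arrays, and a gene at or below these means in both groups is said to lie in the background range. The gene medians of the arrays were 4.20 and 4.21 with ribavirin and 4.24 and 4.30 in control. T-cell markers were at hand as the label has it: CD3D, CD3E, CD3G, LCK, ZAP70 and LAT lay above background in both groups, while CD2 and CD28 lay in the background range and CD7 did so with ribavirin.

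Promoters of the kinesins whose changes were largest are shown first, since motors of the dividing cell share letters there. Many genes expressed in G2 and mitosis are known to carry a CHR element, bound by the MuvB complexes, and CCAAT boxes, bound by NF-Y. The letters searched were TTTGAA and TTCGAA for CHR and CCAAT for the box, on both strands, in RefSeq windows of GRCh38.p14 from 250 bases before to 50 after an annotated start. No match overlapped another in the kinesins. The next lines give the last 150 bases before the start for the 3 mitotic and 2 transport kinesins with the largest rises among those with a window, and for KIF4A and its near-identical copy KIF4B, 5′ to 3′ on the gene's strand, with matched letters in capitals. CHR letters of KIF4B lie after its start and are not in the stretch shown.
KIF15: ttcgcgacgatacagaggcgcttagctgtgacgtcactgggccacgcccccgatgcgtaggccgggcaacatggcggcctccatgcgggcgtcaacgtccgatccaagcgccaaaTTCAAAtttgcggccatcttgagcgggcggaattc
KIF23: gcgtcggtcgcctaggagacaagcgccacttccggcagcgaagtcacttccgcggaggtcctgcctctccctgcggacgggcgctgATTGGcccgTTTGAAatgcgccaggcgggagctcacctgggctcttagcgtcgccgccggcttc
KIF11: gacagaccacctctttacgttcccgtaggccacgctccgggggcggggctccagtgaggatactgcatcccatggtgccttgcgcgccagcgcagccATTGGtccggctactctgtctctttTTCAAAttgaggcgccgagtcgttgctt
KIF5B: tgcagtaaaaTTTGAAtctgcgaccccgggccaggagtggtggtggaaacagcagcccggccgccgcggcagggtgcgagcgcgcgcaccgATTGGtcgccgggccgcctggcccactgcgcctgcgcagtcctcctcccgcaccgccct
KIF3B: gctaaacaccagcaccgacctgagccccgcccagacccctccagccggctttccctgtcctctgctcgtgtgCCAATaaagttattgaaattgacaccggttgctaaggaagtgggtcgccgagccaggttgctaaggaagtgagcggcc
KIF4A: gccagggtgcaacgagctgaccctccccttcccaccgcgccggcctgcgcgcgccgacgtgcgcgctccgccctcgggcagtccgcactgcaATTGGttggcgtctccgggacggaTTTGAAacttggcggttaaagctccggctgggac
KIF4B: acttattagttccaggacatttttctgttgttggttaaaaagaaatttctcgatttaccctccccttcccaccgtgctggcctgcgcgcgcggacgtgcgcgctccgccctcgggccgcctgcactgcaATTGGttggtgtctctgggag

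KIF15 is read from chr3:44761644-44761793 (plus strand), KIF23 from chr15:69414199-69414348 (plus strand) and KIF11 from chr10:92592980-92593129 (plus strand). The transport pair lies at chr10:32056426-32056575 (minus strand) for KIF5B and chr20:32277501-32277650 (plus strand) for KIF3B. The copies lie at chrX:70289954-70290103 (plus strand) for KIF4A and chr5:155013605-155013754 (plus strand) for KIF4B.

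CHR letters stood in a window of 11 of 15 mitotic kinesins (73.3%), of 1 of 12 transport kinesins with a window (8.33%) and of 1 of 7 others (14.3%), against 19.5% of all 27305 genes with a window. CCAAT letters stood in 11 of 15 mitotic (73.3%), 4 of 12 transport (33.3%) and 3 of 7 other kinesins (42.9%), against 39.7% of all genes. Both were held by 10 of 15 mitotic kinesins (66.7%) and by 7.85% of all genes. By window instead of by gene, CHR letters stood in 16.4%, CCAAT letters in 34.6% and both in 6.38% of all 35116 windows. In all 10 mitotic windows with both, a CCAAT match lay before a CHR match, with 9 to 50 bases from first base to first base in 9 of them and 122 in KIF20B. In KIF5B the order was turned, with CHR letters 140 and CCAAT letters 59 bases before the start, and in KIF24, the other kinesin outside the mitotic class with both, CCAAT letters came first by 48 bases. KIF5A, KIF13B, KIF21B, KIFC2, KIFC3, KIF19, KIF26B and KIF27 had no window in the table used.

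**Figure D1:**
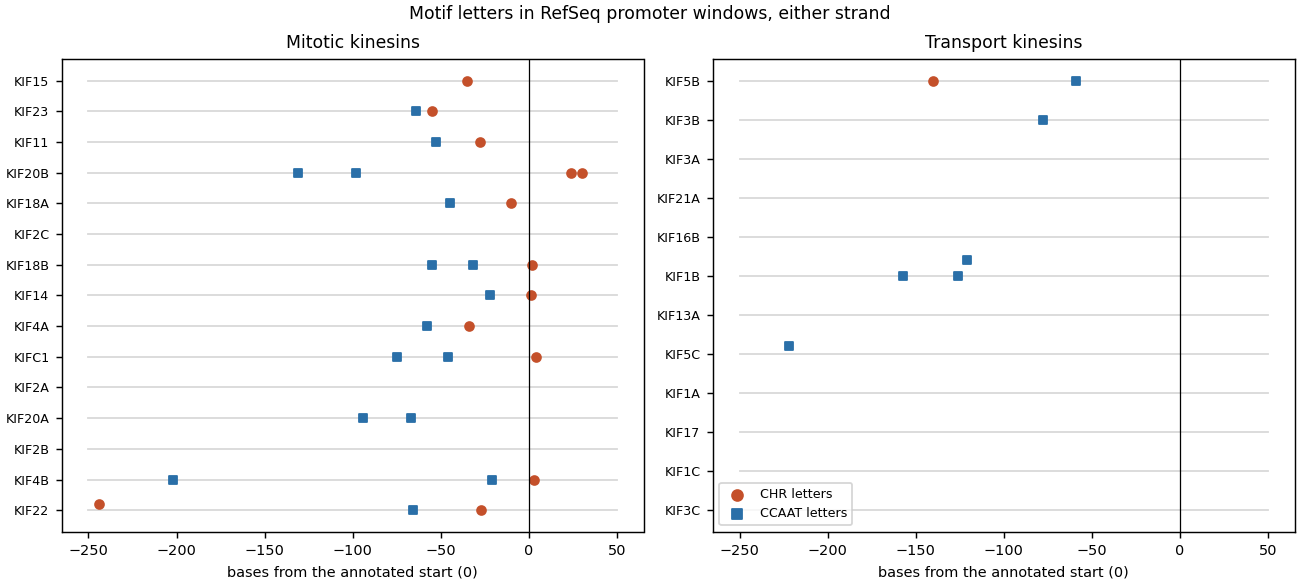
Each row is a kinesin with a RefSeq promoter window, and the x axis gives bases from the annotated start. Circles mark CHR letters and squares CCAAT letters on either strand, with further windows of a gene set slightly higher. CHR letters appear in 11 of 15 mitotic rows at left and in 1 of 12 transport rows at right.

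Of the 7 mitotic kinesins that rose, 6 held CHR letters (85.7%), and of the 8 that did not pass, 5 did (62.5%). CCAAT letters stood in 5 of those 7 (71.4%) and in 6 of those 8 (75%), and both in 5 (71.4%) and 5 (62.5%). KIF2C rose with neither motif in its window. KIF22, with CHR letters 27 and CCAAT letters 66 bases before its first start, had a lower mean with ribavirin. A match is a description of letters and no evidence of a bound factor.

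Ribavirin cells had higher transcript levels of the mitotic motors KIF15, KIF23, KIF11, KIF18A, KIF2C, KIF18B and KIF4A and of the transport motors KIF5B, KIF21B, KIF3B, KIF21A and KIF16B. These 12 of 42 kinesins (28.6%) passed limma's test at an adjusted p under 0.05, all upward, and 0 fell. By the same rule 15.2% of all genes and 32.9% of the 10221 genes whose mean over the arrays lay above the background range changed in either direction. Upward calls made up 9.34% of all genes and 21.7% of those above background, and downward calls 5.88% and 11.1%. Of the 25 kinesins above background by the same measure, 12 rose (48%) and 0 fell, given as a description because a level that rises can itself lift a gene above background. Of those that did not pass, 3 (KIF22, KIF1C and KIF3C) were lower at an unadjusted p under 0.05, and 18 of the 42 were higher. That cut was passed in either direction by 7623 of all 25847 genes. The upward share of all calls was 61.3%, and it was 49.3% after quantile normalization anew and 73.7% with arrays centred on their median. With 1 array left out at a time, no call of a kinesin held in every fit. Each of the 12 that rose kept a positive change there, from 0.32 (KIF4A) at the lowest to 1.36 (KIF15) at the highest.

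**Figure D2:**
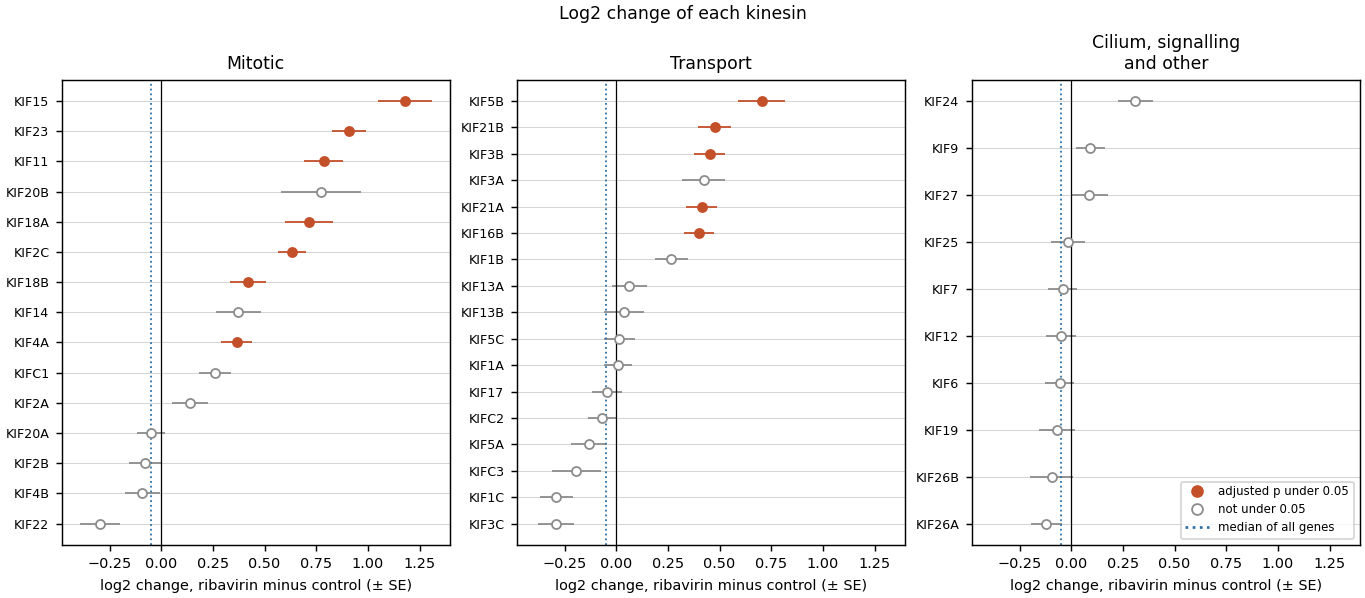
Points give the log2 change of each kinesin, ribavirin minus control, with bars of 1 SE from limma (2 arrays a group), in 3 panels by role. Filled points have an adjusted p under 0.05. The 7 filled mitotic points lie between 0.37 and 1.18 and the 5 filled transport points between 0.40 and 0.70, and the dotted line marks the median of all genes at -0.05.

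Among the mitotic kinesins 7 of 15 rose (46.7%), 0 fell and 8 did not pass. Of all genes 9.34% rose and 5.88% fell. The mitotic median log2 change was 0.37, against -0.05 over all genes. Among the transport kinesins 5 of 17 rose (29.4%), 0 fell and 12 did not pass, with a median of 0.04. The mitotic median level lay above the transport median level by 2.89 and 2.94 on the ribavirin arrays. On the control arrays it did so by 2.99 and 2.76, so the groups overlapped in this measure. At an unadjusted p under 0.05, 10 mitotic kinesins were higher and 1 lower, and 7 transport kinesins were higher and 2 lower. Over all genes 7623 of 25847 passed that cut in either direction. In the background range lay 2 mitotic and 7 transport members. Over the 13 mitotic and 10 transport kinesins above it, 7 (53.8%) and 5 (50%) rose, and the median log2 changes were 0.42 and 0.41. Of genes above background 21.7% rose and 11.1% fell, with a median log2 change of 0.07. The comparison of mitotic with transport kinesins was not tested.

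**Figure D3:**
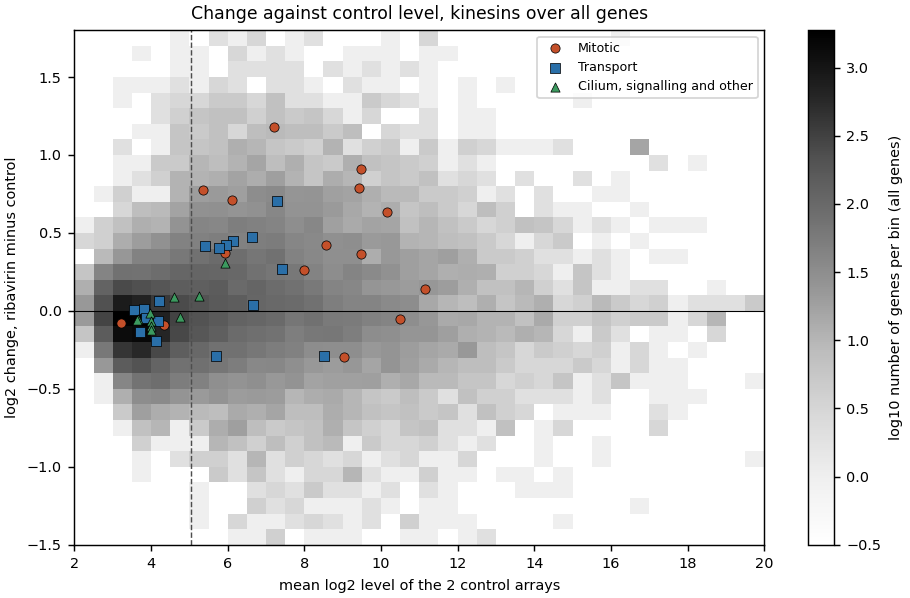
The x axis gives the mean log2 level of the 2 control arrays and the y axis the log2 change, ribavirin minus control, with all genes as grey bins (shade: log10 number of genes) and the dashed line at the highest background probe set (5.04 over the 4 arrays). The kinesins in the background range have changes between -0.19 and 0.09, and those above it between -0.30 and 1.18.

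KIF11 and KIF15 keep the spindle bipolar, KIF11 by sliding antiparallel microtubules apart and KIF15 as its backup. KIF15 (TC03000242.hg.1) stood at 8.57 and 8.22 on the ribavirin arrays, against 7.21 and 7.23 on the control arrays. Its log2 change was 1.18 (SE 0.13, adjusted p = 0.00658), or 2.27-fold, the largest rise of the 42. KIF11 (TC10000659.hg.1) stood at 10.27 and 10.15 on the ribavirin arrays, against 9.34 and 9.51 on the control arrays, a change of 0.79 (SE 0.09, adjusted p = 0.00820). In both genes each ribavirin array lay above each control array, as in 45.9% of genes above background. The ribavirin arrays of KIF15 lay further apart than its controls.

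KIFC1, which walks toward minus ends, bundles spindle poles and clusters extra centrosomes. Its levels were 8.27 and 8.25 on the ribavirin arrays, against 8.06 and 7.94 on the control arrays, with a change of 0.26 that did not pass (adjusted p = 0.0904). Both ribavirin arrays lay above both control arrays, as in 45.9% of genes above background.

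The motors of the midzone and of cytokinesis did not share one pattern. KIF23, the motor of centralspindlin (TC15000638.hg.1), stood at 10.44 and 10.33 on the ribavirin arrays, against 9.53 and 9.43 on the control arrays, and its change of 0.91 (SE 0.08) had the smallest adjusted p of the family, 0.00448. KIF20A, which brings the chromosomal passenger complex to the midzone, stood at 10.42 and 10.45 on the ribavirin arrays, against 10.49 and 10.49 on the control arrays, a change of -0.05 (SE 0.07, adjusted p = 0.668). The ribavirin arrays of KIF23 lay far above its controls, whereas those of KIF20A lay just below its controls, and its sign turned when arrays were centred on their median (0.014). KIF20B, known from the last steps of cytokinesis, stood at 6.41 and 5.85 on the ribavirin arrays, against 5.25 and 5.46 on the control arrays. The groups did not overlap, with ribavirin above control as in 45.9% of genes above background. The ribavirin arrays lay far apart, and the change of 0.77 did not pass (SE 0.19, adjusted p = 0.0590). Without ribavirin replicate 2 it did pass, with a change of 1.05 (adjusted p = 0.0291). KIF14, a partner of citron kinase in cytokinesis, stood at 6.44 and 6.18 on the ribavirin arrays, against 5.90 and 5.98 on the control arrays, a change of 0.37 that did not pass (adjusted p = 0.0855). Differences between members were not tested.

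Chromokinesins carry chromosome arms or bind them. KIF4A (TC0X000376.hg.1), which works with PRC1 on the midzone and with condensin on chromosomes, stood at 9.79 and 9.88 on the ribavirin arrays, against 9.46 and 9.48 on the control arrays, a change of 0.37 (SE 0.07, adjusted p = 0.0326). That call ended after quantile normalization (change 0.23, adjusted p = 0.134). KIF4B, an intronless copy of KIF4A, stood at 4.21 and 4.26 on the ribavirin arrays, against 4.25 and 4.40 on the control arrays, in the background range, so the cluster named for the copy did not show the level of KIF4A. Probes may still be shared in part between such copies. KIF22, which pushes chromosome arms away from the poles, stood at 8.73 and 8.75 on the ribavirin arrays, against 9.15 and 8.92 on the control arrays, lower in ribavirin cells by a margin that did not pass (change -0.30, SE 0.10, adjusted p = 0.116).

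Kinesin-8 and kinesin-13 motors trim microtubule ends. KIF18A, which damps the swings of chromosomes at the metaphase plate (TC11001517.hg.1), stood at 6.96 and 6.70 on the ribavirin arrays, against 6.05 and 6.19 on the control arrays, a change of 0.71 (SE 0.12, adjusted p = 0.0175). KIF18B, which shortens astral microtubules (TC17001589.hg.1), stood at 9.06 and 8.91 on the ribavirin arrays, against 8.60 and 8.52 on the control arrays, a change of 0.42 (SE 0.09, adjusted p = 0.0334). KIF2C, the centromere depolymerase that undoes wrong attachments (TC01000563.hg.1), stood at 10.78 and 10.78 on the ribavirin arrays, against 10.16 and 10.13 on the control arrays, with the closest ribavirin arrays of the 3 and a change of 0.63 (SE 0.07, adjusted p = 0.00651). Each of these rose without overlap between groups, and 45.9% of genes above background had both ribavirin arrays above both control arrays. The KIF18B call ended after quantile normalization (change 0.30, adjusted p = 0.0539). KIF2A, a depolymerase of spindle poles and of neurons, stood at 11.37 and 11.22 on the ribavirin arrays, against 11.12 and 11.19 on the control arrays, and did not pass (change 0.14, SE 0.09, adjusted p = 0.359). KIF2B stood at 3.11 and 3.15 on the ribavirin arrays, against 3.15 and 3.26 on the control arrays, in the background range.

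**Figure D4:**
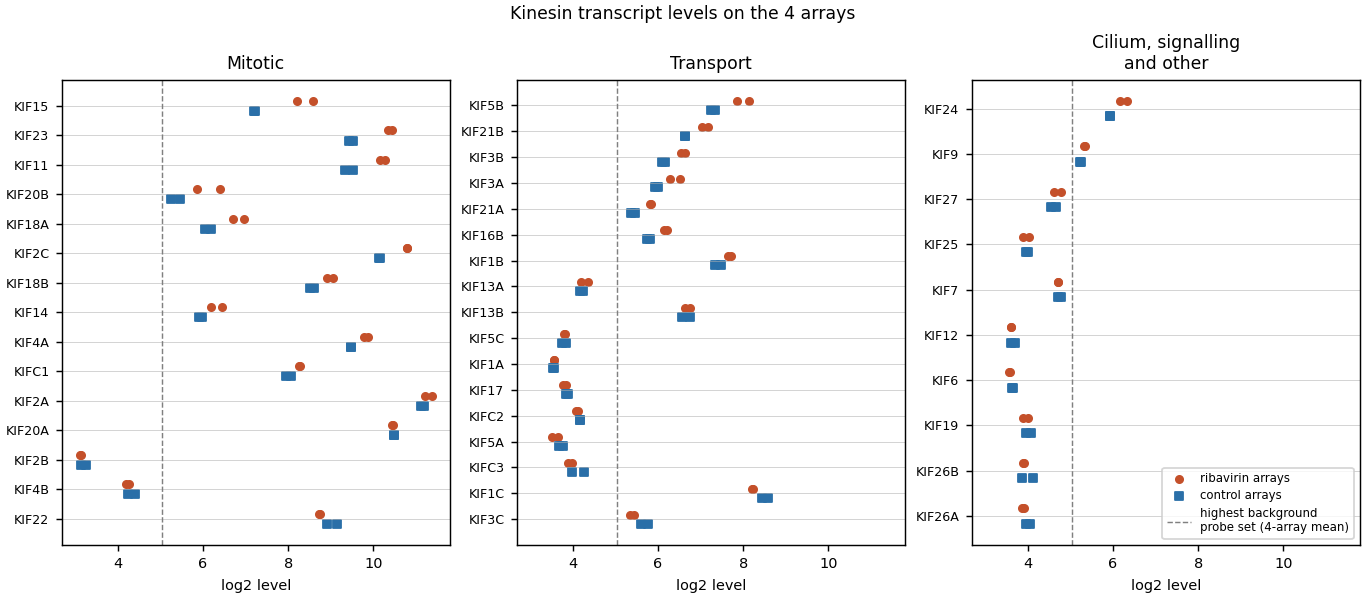
Log2 levels of all 42 kinesins on the 4 arrays, in panels by role and ordered by log2 change, with circles for the 2 ribavirin arrays of each gene and squares for its 2 control arrays. The dashed line is the highest background probe set, and levels should be compared between arrays within a row, not between rows. 17 rows lie left of the line in both groups, 8 of them in the panel of cilium, signalling and other kinesins.

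Of the cargo motors, KIF5B is the kinesin-1 heavy chain that most cells use for mitochondria and lysosomes. KIF5B (TC10001160.hg.1) stood at 8.13 and 7.85 on the ribavirin arrays, against 7.24 and 7.34 on the control arrays, a change of 0.70 (SE 0.11, adjusted p = 0.0175), or 1.63-fold. Its relatives KIF5A and KIF5C, known from neurons, lay in the background range. KIF5A stood at 3.52 and 3.66 on the ribavirin arrays, against 3.68 and 3.77 on the control arrays. KIF5C stood at 3.81 and 3.83 on the ribavirin arrays, against 3.75 and 3.85 on the control arrays, with overlap between groups. Of the neuron markers 7 of 10 were in that range too, as were 15342 of all 25847 genes.

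KIF3A and KIF3B pair with the adaptor KIFAP3 as heterotrimeric kinesin-2, the motor of cilia and of several vesicles. KIF3B (TC20000209.hg.1) stood at 6.63 and 6.54 on the ribavirin arrays, against 6.11 and 6.16 on the control arrays, a change of 0.45 (SE 0.07, adjusted p = 0.0190). KIF3A stood at 6.51 and 6.27 on the ribavirin arrays, against 5.93 and 6.01 on the control arrays, a change of 0.42 that missed the threshold (SE 0.10, adjusted p = 0.0549). KIFAP3 stood at 8.78 and 8.60 on the ribavirin arrays, against 8.08 and 8.10 on the control arrays, a rise of 0.60 (SE 0.09, adjusted p = 0.0140). Each of these 3 genes was higher on both ribavirin arrays than on both control arrays, as were 45.9% of genes above background, and 2 of the 3 passed. KIF3C, which can take the place of KIF3B beside KIF3A and is known from neurons, ran the other way at 5.36 and 5.43 on the ribavirin arrays, against 5.61 and 5.76 on the control arrays, without passing (change -0.29, SE 0.09, adjusted p = 0.0895). KIF17, a kinesin-2 of dendrites and cilia, stood at 3.79 and 3.84 on the ribavirin arrays, against 3.84 and 3.88 on the control arrays, in the background range.

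The kinesin-4 pair KIF21A and KIF21B, which slow microtubule growth, both rose. KIF21B (TC01003683.hg.1) stood at 7.18 and 7.05 on the ribavirin arrays, against 6.63 and 6.64 on the control arrays, a change of 0.48 (SE 0.08, adjusted p = 0.0190). KIF21A (TC12001391.hg.1) stood at 5.84 and 5.81 on the ribavirin arrays, against 5.36 and 5.46 on the control arrays, a change of 0.41 (SE 0.07, adjusted p = 0.0239). Neither gene's groups overlapped, and 45.9% of genes above background had both ribavirin arrays above both control arrays.

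Kinesin-3 motors carry vesicles, and they did not share a direction. KIF16B, a motor of early endosomes (TC20000649.hg.1), stood at 6.21 and 6.15 on the ribavirin arrays, against 5.74 and 5.81 on the control arrays, a change of 0.40 (SE 0.07, adjusted p = 0.0257). KIF1B, a motor of mitochondria and synaptic vesicle precursors, stood at 7.70 and 7.65 on the ribavirin arrays, against 7.34 and 7.47 on the control arrays, a change of 0.27 (SE 0.08, adjusted p = 0.0959). KIF1C, a motor of vesicles bearing integrins, stood at 8.24 and 8.20 on the ribavirin arrays, against 8.57 and 8.45 on the control arrays, with a change of -0.29 that did not pass (SE 0.08, adjusted p = 0.0740). All its ribavirin values lay below all its control values, as in 30.6% of genes above background. KIF13B stood at 6.76 and 6.65 on the ribavirin arrays, against 6.75 and 6.57 on the control arrays, overlapping between groups. KIF13A stood at 4.21 and 4.35 on the ribavirin arrays, against 4.18 and 4.25 on the control arrays. The axonal motor KIF1A stood at 3.57 and 3.57 on the ribavirin arrays, against 3.55 and 3.57 on the control arrays. Both lay in the background range, as did the minus-end motors KIFC2 and KIFC3, at 3.89 to 4.28 over the arrays.

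KIF1C was the gene whose probe sets disagreed most in size. The 42 kinesins had 57 clusters, and 9 had more than 1, some of them copies of KIFC1 on alternative versions of chromosome 6. The other KIF1C cluster (TC17002021.hg.1) stood at 6.33 and 6.45 on the ribavirin arrays, against 7.24 and 7.03 on the control arrays. With every cluster fitted on its own, an alternative chosen after seeing the data, it fell by 0.74 on the log2 scale (SE 0.10, adjusted p = 0.0124 over 33444 clusters), and the mean of both clusters fell too (-0.52, adjusted p = 0.0167). After quantile normalization the cluster used above fell as well (-0.42, adjusted p = 0.0202). The other KIF11 cluster (TC10002220.hg.1) stood at 5.20 and 5.17 on the ribavirin arrays, against 4.72 and 4.66 on the control arrays, and rose by 0.49 (SE 0.07, adjusted p = 0.0150). The other KIF20B cluster was higher by 0.39 and did not pass (adjusted p = 0.127), and the other KIF2A cluster was higher by 0.24 (adjusted p = 0.122).

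**Figure D5:**
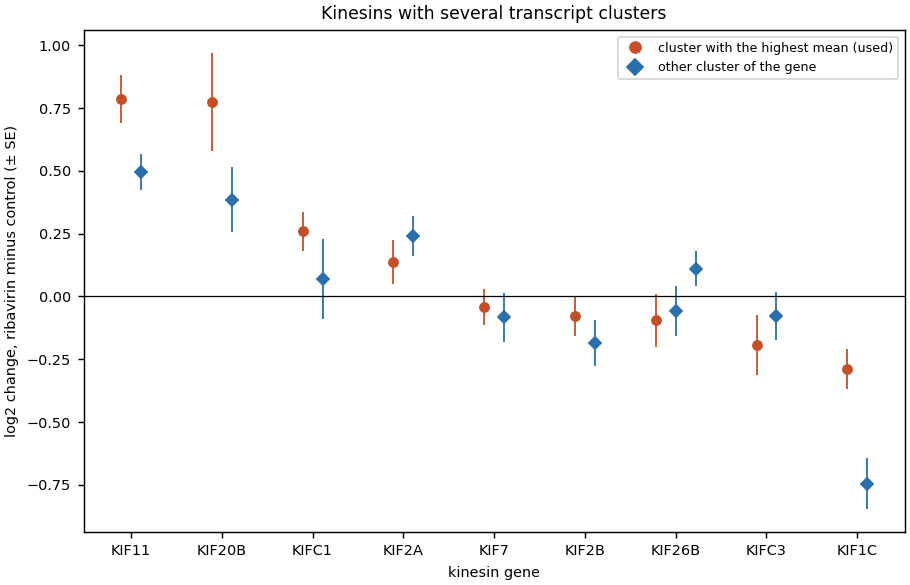
Log2 change, ribavirin minus control, with bars of 1 SE, for the 9 kinesins with several transcript clusters (2 arrays a group; clusters on alternative chromosome versions left out). Circles are the clusters used and diamonds the other clusters of the same gene. Both KIF11 clusters lie above 0 (0.79 and 0.49) and both KIF1C clusters below (-0.29 and -0.74).

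Of the 10 cilium, signalling and other kinesins none rose or fell, and 8 lay in the background range. By the same threshold 9.34% of all genes rose and 5.88% fell, and 15342 of all 25847 genes lay in the background range. KIF24, a depolymerase of the centriole that holds back cilium growth, stood at 6.33 and 6.17 on the ribavirin arrays, against 5.94 and 5.94 on the control arrays, a change of 0.31 (SE 0.08, adjusted p = 0.0724), the only 1 of the 10 past an unadjusted p of 0.05. KIF9, a motor known from motile cilia, stood at 5.35 and 5.33 on the ribavirin arrays, against 5.24 and 5.26 on the control arrays, a change of 0.09 (SE 0.07, adjusted p = 0.430). KIF7, the Hedgehog pathway kinesin, stood at 4.70 and 4.71 on the ribavirin arrays, against 4.71 and 4.78 on the control arrays (change -0.04, SE 0.07, adjusted p = 0.738). Its relative KIF27 stood at 4.77 and 4.62 on the ribavirin arrays, against 4.55 and 4.67 on the control arrays (change 0.09, SE 0.09, adjusted p = 0.569). Both lay in the background range. KIF26A stood at 3.87 and 3.91 on the ribavirin arrays, against 3.95 and 4.06 on the control arrays (change -0.12, SE 0.08, adjusted p = 0.367). KIF6, KIF12, KIF19, KIF25 and KIF26B stood between 3.57 and 4.12 on the 4 arrays. Markers of multiciliated cells were in the background range in 9 of 9 cases.

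Over the whole family 20 kinesins had both ribavirin arrays above both control arrays (24.1% of all genes and 45.9% of genes above background did), and 11 had both below (35.8% and 30.6%). The 17 members in the background range had changes from -0.19 to 0.09.

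Of 20 spindle partners, all above background, 5 rose (25%), 1 fell (5%) and 14 did not pass, against 21.7% and 11.1% of genes above background. Their median log2 change was 0.06, against 0.07 over those genes. ANLN, the cytokinetic scaffold, rose most (1.09, SE 0.07), followed among the 5 with the smallest p by NUSAP1 (0.78), the microtubule end protein MAPRE1 (0.42) and ECT2 (0.35), which centralspindlin brings to the midzone. The kinase PLK1 fell by 0.56 on the log2 scale (SE 0.09). RACGAP1, PRC1 and CENPE are named for their ties to the kinesins, after their values were seen. The KIF23 partner RACGAP1 stood at 11.21 and 11.13 on the ribavirin arrays, against 11.15 and 11.12 on the control arrays, a change of 0.04 (adjusted p = 0.764). The KIF4A partner PRC1 stood at 9.02 and 8.93 on the ribavirin arrays, against 8.91 and 9.03 on the control arrays, a change of 0.00 (adjusted p = 0.980). CENPE, the kinetochore kinesin whose symbol lies outside the KIF names, stood at 6.01 and 5.50 on the ribavirin arrays, against 5.25 and 5.45 on the control arrays, a change of 0.41 that did not pass (SE 0.18, adjusted p = 0.216).

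Of 18 proliferation genes, all above background, 4 rose (22.2%) and 2 fell (11.1%), shares near the 21.7% and 11.1% of genes above background, and the median log2 change was -0.03. Among the 5 with the smallest p, TOP2A (0.84), CDK1 (0.74) and MKI67 (0.72) rose, and the helicase subunit MCM2 (-0.56) and the mitotic cyclin CCNB1 (-0.55) fell. In RNA of whole cultures, more cells in a phase of the cycle and more RNA per such cell cannot be told apart.

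At an adjusted p under 0.05, 9.34% of all genes rose and 5.88% fell, and above background 21.7% rose and 11.1% fell. Among 20 light chains and cargo adaptors, 14 of them above background, 3 rose (15%) and none fell, with a median of -0.0001. They included KIFAP3 and KIDINS220, whose log2 change was 0.53 (SE 0.09). The kinesin-1 light chains, named after their values were seen, did not pass. KLC1 stood at 8.25 and 8.19 on the ribavirin arrays, against 8.18 and 8.20 on the control arrays. KLC2 stood at 7.63 and 7.66 on the ribavirin arrays, against 7.67 and 7.59 on the control arrays. KLC3 and KLC4 lay in the background range. Of 28 genes of dynein and dynactin, the motor that runs the other way, 5 rose (17.9%) and 2 fell (7.14%), against the same shares. Of the 28, 23 lay above background, and the median was -0.02. The 5 with the smallest p, with their log2 changes, were PAFAH1B1 (0.57), DCTN5 (-0.48), DYNLL2 (0.76), NDEL1 (0.37) and DYNC1LI1 (0.58). Of 16 tubulins, whose near-identical copies may share probes, 1 rose (6.25%), TUBE1 by 1.40 (SE 0.14), and 1 fell (6.25%), TUBB4A by 1.79 (SE 0.17). The tubulin median was -0.08.

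Marker lists of T cells and epithelium moved with the groups too. By the same threshold 9.34% of all genes rose and 5.88% fell, and above background 21.7% rose and 11.1% fell. Of 11 T-cell markers measured 7 fell, and their summed linear level was 7610 to 7655 on the ribavirin arrays, against 12242 to 12562 on the control arrays. Of 8 epithelial markers 0 rose and 5 fell (summed level 848 to 897 with ribavirin, against 1337 to 1417 in control), with KRT18, KRT19 and CLDN4 in the background range. Of 8 myeloid markers 1 rose and 6 lay in the background range (summed level 149 to 151 with ribavirin, against 138 to 156 in control), and of 10 neuron markers 1 rose (summed level 7921 to 8531 with ribavirin, against 6683 to 7465 in control). Most of the neuron sum was TUBB3, also a member of the tubulin list, which did not pass (adjusted p = 0.187). The other 9 neuron markers summed to 184 to 193 with ribavirin, against 177 to 183 in control, and 7 of the 10 had a lower mean with ribavirin (median log2 change -0.10). The part of these shifts in the kinesin results was not tested.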

How the data were processed

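Per the labels' protocols, total RNA was amplified and labelled with a kit made for fixed tissue. The authors deposited log2 values per transcript cluster. The name of their table gives SST-RMA, and Expression Console with RMA stands in the submitters' processing notes. Tool versions and the genome build were not given in the sources used here. Both deposited tables held the same values.

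Of 67528 transcript clusters, 33444 with 1 symbol gave 25847 genes, each by its brightest cluster. Ribavirin minus control was fitted with lmFit and eBayes of limma 3.58.1 (R 4.3.3, two-sided, 2 residual and 3.19 prior degrees of freedom), with Benjamini-Hochberg adjustment over all genes. The fit was tested on simulated data. Groups came from the titles. The numbers of the arrays were not used as a pairing: no label ties them, and same-numbered arrays' deviations correlated at r = 0.051 across genes. The kinesins, their role classes and the partner and marker lists were chosen with earlier results of these data known. The motif letters were chosen after the values were seen. All kinesins are named. Full statistics go to those past the threshold, the 4 with the smallest p and the 3 brightest of each class, and to others whose values a sentence rests on. In each partner list up to 5 members past the threshold with the smallest p are named, and results of some listed genes are not reported here. Promoter sequences are RefSeq's, GRCh38.p14. All 42 symbols were current RefSeq symbols. Alternatives were other variance priors, scalings, filters, cluster choices, thresholds, role classes, the array number as a block, and each array left out.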

Additional observations from a re-analysis of the deposited data

How the results depend on the processing

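Across the alternatives run, the 12 kinesins that rose kept a positive change in each, and their calls depended on the arrays kept. Leaving out each array in turn gave 26 to 2001 genes past the threshold, 0 to 6 mitotic and 0 to 1 transport kinesins that rose, a mitotic median of 0.35 to 0.49, a transport median of 0.0071 to 0.066 and a difference of class medians of 0.31 to 0.49, with the lone array taken to vary as the complete pair does. With an adjusted p under 0.01, 1314 genes, 4 mitotic and 0 transport kinesins passed. Under 0.1, 10 mitotic kinesins, 7 transport kinesins and 1 of the other kinesins (KIF24) rose, and 2 transport kinesins fell. After quantile normalization 5 mitotic and 5 transport kinesins rose, and 1 mitotic (KIF22) and 1 transport kinesin (KIF1C) fell. The mitotic median was then 0.28 and the class difference 0.19. Median centring gave a mitotic median of 0.44. With dim genes left out, 29 kinesins were tested, 10 mitotic, 7 transport and 1 other kinesin rose, and 2 transport kinesins fell. The transport median was then 0.40 and the class difference turned to -0.0048. All members left out lay in the background range, while KIF4B, KIF7, KIF27 and KIF13A, also in that range, were kept. With clusters averaged 7 mitotic and 5 transport kinesins rose, and 1 transport kinesin (KIF1C) fell. With KIF2A, KIF2B, KIF21A, KIF21B and KIFC3 moved to the third class, 3 transport and 2 other kinesins rose and the mitotic median was 0.42. The fit with the array number as a replicate block made 3340 calls over all genes and called 10 kinesins, without KIF4A (adjusted p = 0.0553) and KIF16B (0.0503). Signs turned, with no call in either fit, after quantile normalization KIF12 (0.035), KIF13B (-0.074), KIF17 (0.039), KIF19 (0.012), KIF25 (0.063), KIF2B (0.0063), KIF6 (0.030) and KIFC2 (0.0014), with median centring KIF12 (0.015), KIF17 (0.019), KIF20A (0.014), KIF25 (0.049), KIF6 (0.0078) and KIF7 (0.023), and without one array or another KIF13A (-0.0093 to 0.14), KIF13B (-0.052 to 0.13), KIF1A (-0.0029 to 0.018), KIF25 (-0.084 to 0.052), KIF26B (-0.22 to 0.032) and KIF5C (-0.037 to 0.066), and in other clusters of KIF26B (0.11) and, on an alternative version of chromosome 6, of KIFC1 (-0.10). The cause of these turns was not tested. Signal over background is a further limit, since 17 of 42 kinesins were not measured above it.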
